A study of Mus musculus with 40 samples.

Results

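The MAP kinase phosphatases Dusp1, Dusp4, Dusp5, Dusp6, Dusp8 and Dusp10 and the Ras pathway inhibitors Spry1, Spry2, Spry4 and Spred1 were followed in mouse aorta infused with angiotensin-II (Ang-II). The 10 genes were taken by symbol, and all 10 were present among the 17402 genes of the genotype experiment and among the 15399 genes of the cyclosporin A (CsA) experiment. All 10 were among the 14424 and 13738 protein-coding genes tested. The filter on low values removed only 0 and 3 genes there, so passing it says little about level. The study compared the early transcriptional response to Ang-II in aortas with and without smooth muscle calcineurin (Cn), and with and without inhibition of the Cn phosphatase by CsA. All mice were male, and each library was a pool of 3 aortas from which perivascular tissue and adventitia had been removed by dissection.

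In the genotype experiment the labels give floxed CnB1 (Ppp3r1, the Cn regulatory subunit) for every library, and all mice had received tamoxifen, 1 mg daily for 5 days, 6 weeks earlier. By the same labels Cn-Ctl mice lacked Cre, although the study's methods also count Myh11-CreERT2 mice with wild-type CnB1 among its controls. SM-Cn-/- mice carried Myh11-CreERT2, in which the smooth muscle myosin promoter drives a tamoxifen-activated Cre, so that other aortic cells kept Cn. The groups were untreated (2 Cn-Ctl and 3 SM-Cn-/- libraries) or received Ang-II at 1 µg/kg/min by minipump for 2 h (3 and 3), 6 h (3 and 3) or 24 h (2 and 3). A further untreated Cn-Ctl replicate was discarded by the authors and is not analysed here. In the CsA experiment C57BL/6J mice had either no pump (WT) or a CsA pump for 5 days (CsA) and were then left untreated or given the same dose of Ang-II for 2 or 24 h, with 3 libraries in each of the 6 groups. CsA and its pump cannot be told apart. The study's methods describe control mice operated on in the same way but given no pump, so the effects of Ang-II and of an implanted pump cannot be told apart either. Ang-II-treated Cn-Ctl, WT and CsA mice entered only when their systolic pressure had risen above a set limit. No such limit was set for treated SM-Cn-/- mice, so selection by pressure differs between the genotypes. By the study's methods, SM-Cn-/- mice in which CnB1 deletion could not be shown were removed. So were CsA mice without shown inhibition of the dephosphorylation of NFAT, a Cn substrate, in the thymus.

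Ang-II acts on smooth muscle through a G protein-coupled receptor that, among other routes, engages Ras and the ERK, JNK and p38 MAP kinases. DUSPs of this family remove phosphate from both the threonine and the tyrosine of the MAP kinase activation loop. Several are immediate early genes, induced by the kinases they switch off, and Sprouty and Spred proteins act further upstream, on the way from receptor tyrosine kinases to Ras and Raf. They are therefore commonly read as feedback inhibitors of the pathway. RNA levels say nothing about the protein, its phosphorylation or the activity of the kinases.

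Values are given as signal, the deposited normalised read count, which lies on a scale close to CPM. Here 1 read was worth 0.0920 to 0.347 units of signal in the genotype experiment and 0.0256 to 0.0548 in the CsA experiment. The 22 genotype libraries held 2728007 to 10250178 reads and the 18 CsA libraries 18976266 to 38900009 reads, so low genes were measured less precisely in the first. Signal summed over all genes was higher at 2 h than untreated in Cn-Ctl (1105200 to 1179360 against 957507 and 963159). So it was in WT (1040810 to 1154870 against 877583 to 939727) and CsA (994178 to 1153690 against 907723 to 949677). In SM-Cn-/- the sums overlapped (938859 to 1027240 against 919723 to 967779). The part of this scaling in the 2 h differences was not tested on its own. Ppp3r1 did not separate the genotypes at the level of the whole gene: it ranged from 45.7 to 133.9 in the 10 Cn-Ctl and from 41.8 to 117.7 in the 12 SM-Cn-/- libraries, and in none of the 4 comparisons of genotypes did it pass the test (adjusted p = 0.43 to 0.98). These values cover exons outside the deletion and cells without Cre, so they do not check the labels. The study itself checked CnB1 recombination by PCR on aortic tissue and reported less CnB and CnA protein in SM-Cn-/- aortic extracts. Rcan1, a classical target of Cn signalling, rose to 368, 404 and 380.2 at 2 h in Cn-Ctl from 27.6 and 45.4 and was 46.6, 31.7 and 55.3 in SM-Cn-/-, where untreated libraries had 38.3, 36.1 and 30.4. In the CsA experiment the mean signal of Rcan1 rose from 37.6 untreated to 296 at 2 h in WT. With CsA it rose from 33.7 to 133, so a smaller rise remained. Smooth muscle markers were abundant in all libraries (summed signal 15723 to 48464 for 6 of 6 genes), and every listed marker of endothelium, macrophages, adventitial fibroblasts, fat, blood and Schwann cells had reads in every library. Cd3g of T cells and Ckm and Myh4 of skeletal muscle had 0 reads in some genotype libraries. In bulk tissue, fewer cells of a type and less RNA per cell cannot be told apart.

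Reference promoters, from 250 bases before to 50 bases after the RefSeq transcription start (GRCm38.p6), were at hand for 8 of the 10 genes, all except Dusp4 and Spry4. They were searched on both strands for TGACGTCA (the cyclic AMP response element, CRE), TGANTCA (AP-1), GGAAAA (the NFAT core) and the CArG box bound by serum response factor, none of which overlaps another in these windows. Of the 32851 promoters of that length, 1.79% held the CRE, 7.81% the AP-1 motif, 23.4% the NFAT core and 1.63% the CArG box. The 4 promoters that held any match are shown with the place of each match. The CRE was in Dusp1 and Dusp8, and each of the others held another motif. Genes without a match also rose at 2 h, Dusp10 in Cn-Ctl, WT and CsA and Spry1 in WT. Dusp1 (chr17:26508423-26508722, minus strand) held 1 CRE and Dusp8 (chr7:142095235-142095534, minus strand) held 2, Dusp5 (chr19:53528895-53529194, plus strand) held 2 adjacent CArG boxes, and Spry2 (chr14:105896770-105897069, minus strand) held 2 NFAT cores. The sequences run 5′ to 3′ on the strand of the gene, and capitals mark the matches.
Dusp1: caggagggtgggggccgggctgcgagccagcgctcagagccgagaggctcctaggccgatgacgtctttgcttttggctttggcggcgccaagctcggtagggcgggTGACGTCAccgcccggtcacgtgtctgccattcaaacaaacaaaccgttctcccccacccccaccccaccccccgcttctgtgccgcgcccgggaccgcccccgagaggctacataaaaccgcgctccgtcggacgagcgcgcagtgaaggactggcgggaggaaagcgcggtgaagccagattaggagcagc
Dusp8: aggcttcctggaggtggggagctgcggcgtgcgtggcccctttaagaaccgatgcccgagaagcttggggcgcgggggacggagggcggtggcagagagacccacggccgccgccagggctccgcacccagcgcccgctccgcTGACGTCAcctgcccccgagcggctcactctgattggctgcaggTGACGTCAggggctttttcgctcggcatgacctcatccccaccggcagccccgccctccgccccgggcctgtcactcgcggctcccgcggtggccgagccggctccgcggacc
Dusp5: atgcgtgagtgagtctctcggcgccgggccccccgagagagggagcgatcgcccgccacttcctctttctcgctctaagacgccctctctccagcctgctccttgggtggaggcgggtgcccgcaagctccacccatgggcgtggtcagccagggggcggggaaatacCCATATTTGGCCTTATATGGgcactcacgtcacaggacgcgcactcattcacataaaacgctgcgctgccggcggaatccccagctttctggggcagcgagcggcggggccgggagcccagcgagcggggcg
Spry2: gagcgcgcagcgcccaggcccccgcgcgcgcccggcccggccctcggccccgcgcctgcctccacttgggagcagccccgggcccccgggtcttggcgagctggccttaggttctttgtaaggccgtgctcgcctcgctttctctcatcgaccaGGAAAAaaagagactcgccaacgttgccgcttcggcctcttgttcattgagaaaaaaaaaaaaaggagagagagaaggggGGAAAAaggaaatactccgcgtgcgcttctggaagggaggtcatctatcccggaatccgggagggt
In Dusp1 the CRE lay at bases -143 to -136 from the start, and in Dusp8 the pair lay at -107 to -100 and -63 to -56. In Dusp5 the CArG boxes lay at -82 to -73 and -72 to -63, and in Spry2 the NFAT cores lay at -96 to -91 and -16 to -11. The promoters of Dusp6, Dusp10, Spry1 and Spred1 held none of the 4 motifs, and none of the 8 held an AP-1 match. A match is a string of letters only, and binding was not measured.

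Compared per length of exon, the 10 genes spanned a wide range of levels in untreated aorta. Dusp1, a nuclear phosphatase for p38, JNK and ERK, was the highest, at 54.6 ± 4.69 signal per kb (SD, n = 2) in Cn-Ctl and 50.8 ± 27.6 (SD, n = 3) in WT. Dusp8, which prefers JNK and p38, followed at 15.9 ± 2.57 and 19.2 ± 4.21 per kb, and Spry2 came next at 7.41 ± 2.44 and 7.60 ± 1.159. The libraries of these first 2 genes overlapped neither each other nor those of the third in either control group. Spred1, Dusp6, Dusp10 and Spry1 lay between 3.31 and 6.49 per kb on average. In Cn-Ctl Spred1 overlapped Dusp6, Dusp6 overlapped Dusp10 and Dusp10 overlapped Spry1, which stood clear of Spry4. In WT Dusp10 overlapped both Spry2 and Spred1, and Dusp6 overlapped Spry1. Spry4 and Dusp5 were lower, between 1.49 and 2.05 per kb, and overlapped each other in both groups. Dusp4 was the lowest, at 0.176 ± 0.0138 and 0.998 ± 0.365 per kb. After 2 h of Ang-II Dusp1, Dusp8 and Spry2 kept the first places in both groups, and Dusp5, in the ninth place before, stood at 6.67 ± 2.17 per kb in Cn-Ctl and 5.73 ± 1.33 in WT. Its place was not resolved, since its libraries overlapped those of Spred1, Spry1 and Dusp6 in both groups and in Cn-Ctl those of Spry4 too.

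**Figure D1:**
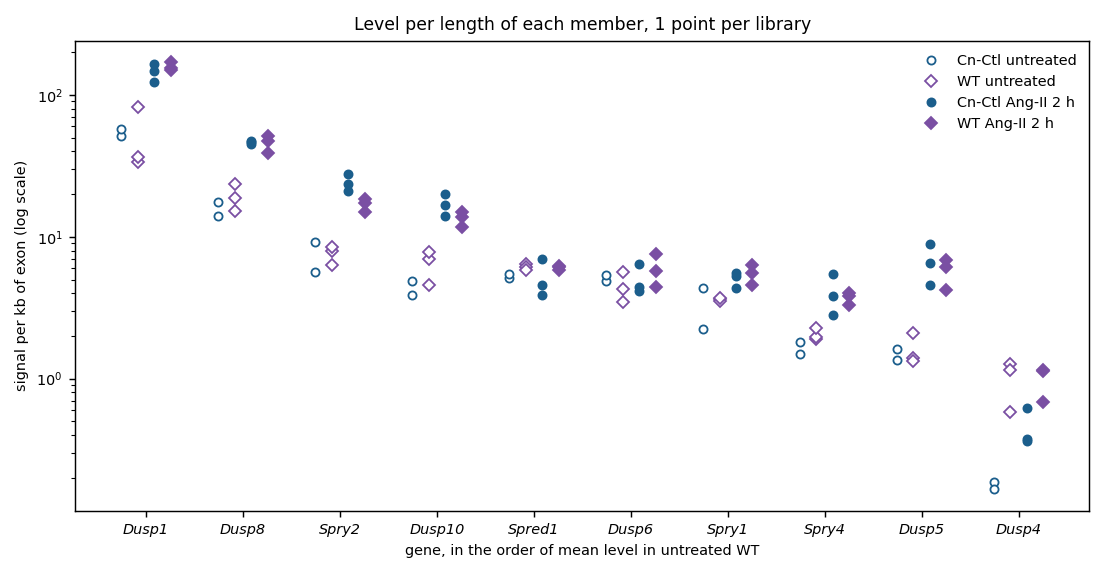
Signal per kb of exon (log axis) of each gene in untreated (open) and 2 h Ang-II (filled) libraries of Cn-Ctl and WT, 1 point per library. Dusp1 is highest and Dusp4 lowest, and the filled points of Dusp1, Dusp8, Spry2, Dusp10 and Dusp5 lie above the open ones of the same group.

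Ang-II for 2 h raised 5 of the 10 genes in Cn-Ctl aorta, namely Dusp1, Dusp5, Dusp8, Dusp10 and Spry2, and lowered 0 (limma, adjusted p under 0.05 over all genes tested), where 6.23% of all genes tested changed in either direction. In SM-Cn-/- aorta 1 of 10, Dusp1, rose, against 1.13% of all genes. In WT aorta 7 of 10 rose, the same 5 with Spry1 and Spry4, against 21.4%, and in CsA-treated aorta 6 of 10 rose, the same 5 with Spry4, against 20.1%. The median log2 difference of the 10 genes was 1.29 for Cn-Ctl and 0.24 for SM-Cn-/-, where that of all genes was 0.01 and -0.01. For WT it was 0.95 and for CsA 0.82, where that of all genes was 0.02 and -0.02. The libraries of the CsA experiment were deeper and a larger share of all genes passed there, so counts are not set against each other across experiments. At 2 h adventitial fibroblast sums were 1457 to 2301 against 724 to 1410.1 untreated in Cn-Ctl (1 of 5 higher, Pi16) and 1692 to 2048 against 999 to 1588 in SM-Cn-/- (0 of 5 passed by limma or edgeR, 1 at an unadjusted p under 0.05), where smooth muscle sums were also higher than untreated (24619.9 to 30876 against 20219 to 23659). With CsA smooth muscle sums were higher at 2 h than untreated (19489 to 25208 against 15723 to 17748), and macrophage sums (96.6 to 109 against 175 to 261) and fibroblast sums (747 to 1141 against 1164 to 1302) lower. In WT the sums of these lists overlapped between 2 h and untreated. Their part in the 2 h changes was not tested. No source says that pools of a group came from separate cohorts, and p-values measure only the spread between these pools.

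**Figure D2:**
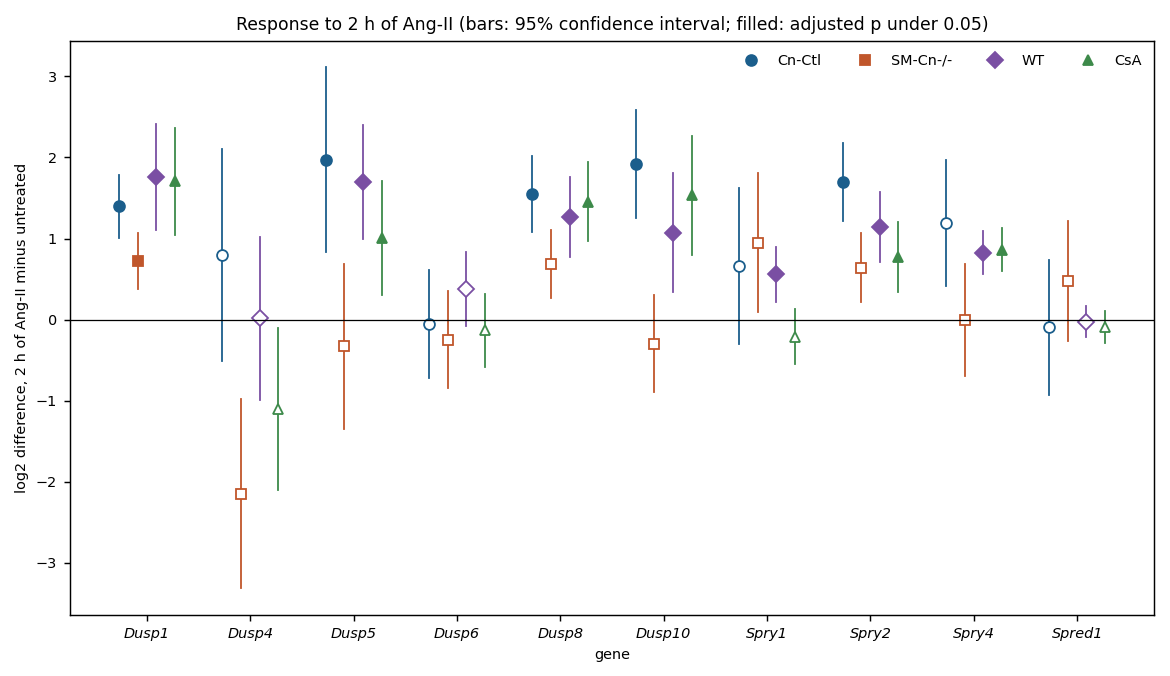
Log2 difference between 2 h of Ang-II and untreated for each gene, 1 symbol per group (Cn-Ctl, SM-Cn-/-, WT or CsA), with 95% confidence intervals; filled symbols passed an adjusted p of 0.05. Dusp1, Dusp5, Dusp8, Dusp10 and Spry2 are filled in Cn-Ctl, WT and CsA, and Dusp1 alone is filled in SM-Cn-/-.

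Fewer members passed at later times in the genotype experiment. At 6 h in Cn-Ctl 4 of 10, Dusp1, Dusp5, Dusp10 and Spry4, were higher than untreated (all genes 3.97%), and at 24 h 0 of 10 passed by limma or edgeR (all genes 5.62%). At 24 h 2 of 10 had an unadjusted p under 0.05, beside 2890 of all 14424 genes tested. Between 2 and 6 h, Dusp8 and Spry2 fell (2 of 10, all genes 1.67%). In SM-Cn-/- 0 of 10 passed at 6 h, at 24 h or between 2 and 6 h by limma or edgeR (all genes 2.34%, 0.79% and 1.41%). At an unadjusted p under 0.05 there were 2, 2 and 1 of 10, beside 2364, 1660 and 2964 of all 14424 genes tested. All 6 h calls against untreated Cn-Ctl rest on 2 untreated libraries, and without either of them, or in a fit of only the groups compared, 0 of 10 passed. In WT, 5 of 10 were higher at 24 h than untreated, Dusp5, Spry1, Spry2, Spry4 and Spred1 (all genes 35%). From 2 to 24 h Dusp1, Dusp8 and Dusp10 fell while Spry1 and Spred1 rose (5 of 10, all genes 36.2%). In CsA, Spry4 was higher and Dusp4 lower at 24 h than untreated (2 of 10, all genes 8.98%), and Dusp1, Dusp8, Dusp10 and Spry4 fell from 2 to 24 h (4 of 10, all genes 18%).

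**Figure D3:**
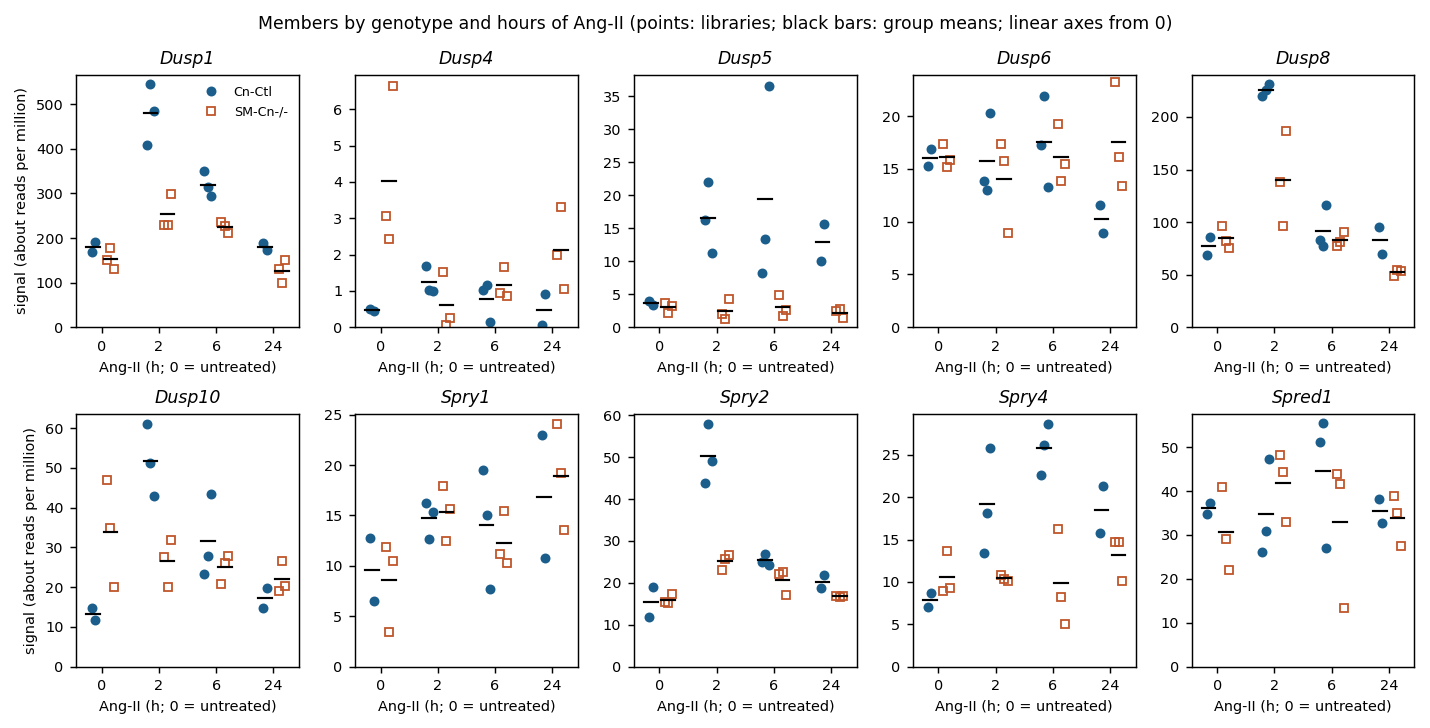
Signal of each gene in every library of the genotype experiment against hours of Ang-II (0 is untreated), with black bars at the group means and linear axes from 0. The 3 Cn-Ctl libraries at 2 h lie above all SM-Cn-/- libraries at 2 h for Dusp1, Dusp5, Dusp8, Dusp10, Spry2 and Spry4, and Dusp5 stays apart at 6 and 24 h.

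Compared directly, Cn-Ctl exceeded SM-Cn-/- at 2 h of Ang-II for Dusp1, Dusp5, Dusp8 and Spry2 (4 of 10, all genes 3.7%), at 6 h for Dusp5 and Spry4 (2 of 10, 1.98%) and at 24 h for Dusp5 (1 of 10, 4.94%). In untreated aorta 0 of 10 differed by limma or edgeR (all genes 0.0139%), with 2 of 10 at an unadjusted p under 0.05, beside 757 of all 14424 genes tested. The difference between the genotypes in the 2 h response itself passed for Dusp10 (1 of 10, all genes 0.513%). An unadjusted p under 0.05 was found for 7 of 10, beside 1150 of all 14424 genes tested. Untreated Cn-Ctl and SM-Cn-/- libraries did not overlap in smooth muscle (27772 to 28221 against 20219 to 23659), endothelial (308 to 416 against 539 to 701), macrophage (64.3 to 93.6 against 115 to 213) or Schwann cell sums (21.6 to 27.3 against 30.2 to 43.2), although 0 of these markers passed there by limma or edgeR, with 2 endothelial and 2 macrophage ones at an unadjusted p under 0.05. At 2 h, endothelial marker sums were 289 to 532 in Cn-Ctl and 638 to 843 in SM-Cn-/- (1 of 5 lower in Cn-Ctl, Pecam1), and smooth muscle sums were 26844 to 34902 and 24619.9 to 30876 (2 of 6 higher in Cn-Ctl, Cnn1 and Myocd). At 6 h the smooth muscle sums were 31273 to 32986 and 22389 to 28020.3. At 24 h they were 26824 to 48464 and 23729.6 to 26421, the fat sums 145 to 680.2 and 725 to 1323 and the Schwann cell sums 16.3 to 23.4 and 23.7 to 37.9. The endothelial sums at 24 h were 415 to 449 and 1045 to 1113 (2 of 5 lower in Cn-Ctl, Tek and Pecam1). The part of these markers in the differences was not tested. Fitted with only the groups compared, the 2 calls at 6 h did not pass (adjusted p = 0.21 for Dusp5 and 0.27 for Spry4).

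CsA was then set against WT at each time. At 2 h of Ang-II 0 of 10 differed between CsA and WT by limma or edgeR (all genes 1.33%). An unadjusted p under 0.05 was found for 3 of 10 there, beside 2546 of all 13738 genes tested. The 2 h response differed for 0 of 10 (all genes 0.146%), with 1 of 10 at an unadjusted p under 0.05, beside 1898 of 13738. At 2 h smooth muscle sums were 19489 to 25208 with CsA against 27593 to 34725.5 in WT, and endothelial sums 734 to 879 against 509 to 573. Skeletal muscle sums were 3.43 to 4.38 against 6.53 to 31.0, and those of the other cell types measured overlapped. The part of these markers in the 2 h levels was not tested. At 24 h Dusp5 and Spred1 were lower with CsA (2 of 10, all genes 5.58%), although neither passed when only these 2 groups were fitted (adjusted p = 0.073 and 0.13). At 24 h the CsA libraries did not overlap those of WT in endothelial (703 to 1186 against 587 to 699.7), fat (583 to 1737 against 398 to 476), fibroblast (920.1 to 1233 against 1254 to 1485) or Schwann cell sums (29.3 to 61.5 against 24.8 to 29.2), and 1 of these markers passed, Pdgfra of fibroblasts, which was lower with CsA. The part of these markers in the 24 h differences was not tested. Before Ang-II, Dusp4 and Spry1 were higher and Dusp8 lower with CsA (3 of 10), where 25.2% of all genes differed, so a share of this size is near the background. Untreated CsA aorta also differed from WT in its markers. Smooth muscle sums were 15723 to 17748 against 24882 to 34069.7 in WT (6 of 6 lower), and endothelial sums 874 to 1002 against 336 to 574 (5 of 5 higher). Macrophage sums were 175 to 261 against 67.2 to 101 (5 of 5 higher) and fat sums 919 to 1635 against 182 to 367 (4 of 5 higher). Their part in the 3 differences was not tested.

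**Figure D4:**
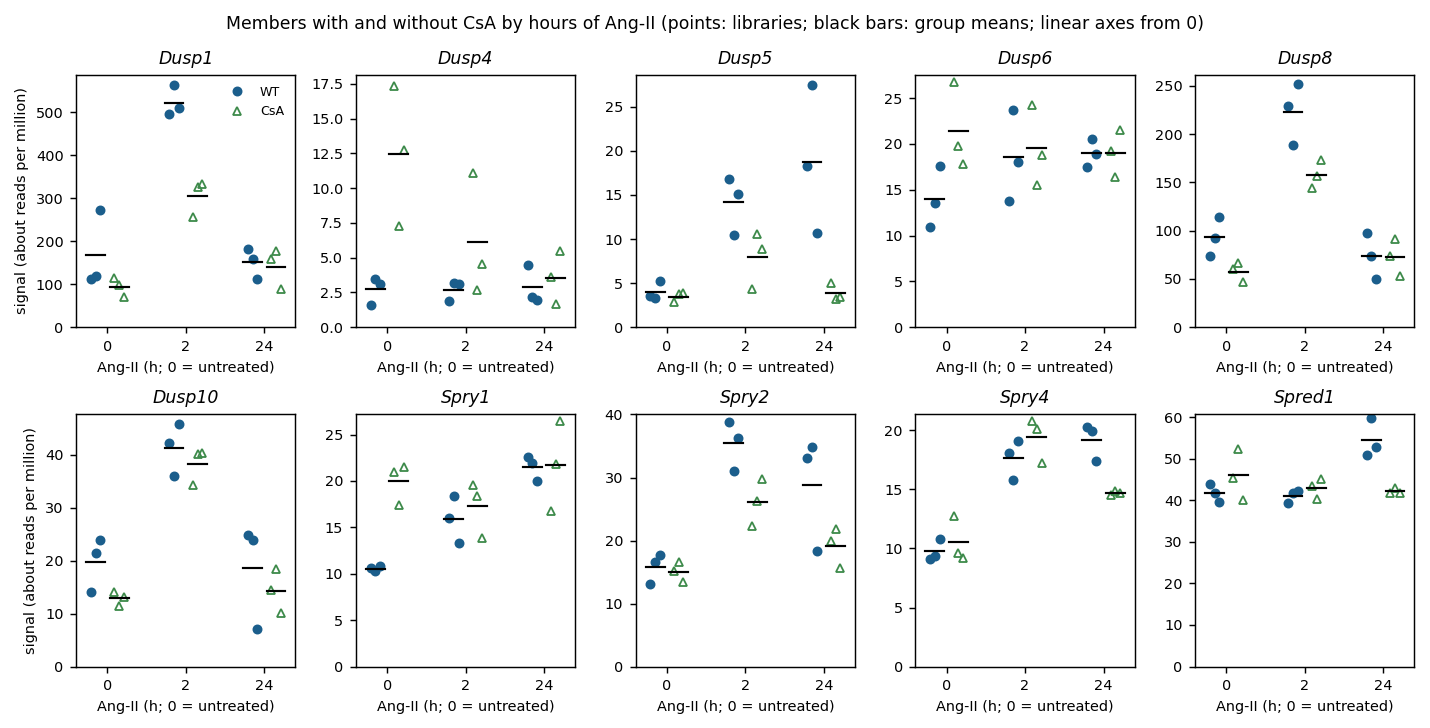
Signal of each gene in every library of the CsA experiment against hours of Ang-II (0 is untreated), with black bars at the group means and linear axes from 0. The 3 CsA libraries at 24 h lie below all 3 WT libraries for Dusp5, and untreated CsA lies above untreated WT for Dusp4 and Spry1.

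Dusp1 had a signal of 169.8 and 192 in the 2 untreated Cn-Ctl libraries, 409, 544 and 485 at 2 h, 349, 314 and 294 at 6 h and 188 and 174 at 24 h. All 3 libraries at 2 h and at 6 h exceeded both untreated ones, and the 24 h libraries were back among them. In SM-Cn-/- it was 152, 177 and 129.7 untreated, 230.3, 229.7 and 299 at 2 h, 237, 228 and 211 at 6 h and 131, 99.1 and 150.2 at 24 h, again without overlap between untreated and 2 h but at a lower level. The rise at 2 h was 2.63-fold in Cn-Ctl (log2 difference 1.40 ± 0.19 SE, adjusted p = 3.1e-05) and 1.65-fold in SM-Cn-/- (log2 difference 0.72 ± 0.17 SE, adjusted p = 0.032). The level at 2 h was 1.89-fold higher in Cn-Ctl (log2 difference 0.92 ± 0.17 SE, adjusted p = 0.0019). The difference between the 2 responses did not pass (log2 difference 0.67, 95% interval 0.15 to 1.197, adjusted p = 0.42). At 6 h Cn-Ctl was 1.76-fold above untreated (log2 difference 0.82 ± 0.19 SE, adjusted p = 0.013). The rise in SM-Cn-/- lost its call without any 1 of 5 libraries (untreated replicates 1 and 3 and all 3 at 2 h, adjusted p 0.076 to 0.26), and the call at 6 h in Cn-Ctl was lost without either untreated library (adjusted p 0.077 to 0.19). Quantile normalization ended the calls for the SM-Cn-/- rise, for the 2 h difference of genotypes and for Cn-Ctl at 6 h (adjusted p 0.12, 0.059 and 0.058), and the fit of only the groups compared those for the SM-Cn-/- rise and for Cn-Ctl at 6 h (adjusted p 0.062 and 0.099).

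In WT, Dusp1 was 111, 120.0 and 274 untreated, 496, 564 and 509 at 2 h and 182, 159 and 111 at 24 h. Untreated replicate 3 stood well above the other two and below every 2 h library. With CsA it was 114, 98.2 and 70.9 untreated, 256, 325 and 334 at 2 h and 158, 177 and 88.3 at 24 h, so that the 2 h libraries lay below those of WT and the untreated ones overlapped. The rise was 3.38-fold in WT (log2 difference 1.76 ± 0.31 SE, adjusted p = 0.00077) and 3.26-fold with CsA (log2 difference 1.70 ± 0.31 SE, adjusted p = 0.0015). The difference of responses was near 0 with a wide interval (log2 difference -0.05, 95% interval -0.98 to 0.88, adjusted p = 0.97). At 2 h the CsA level was 1.72-fold lower without passing the test (log2 difference -0.78 ± 0.31 SE, adjusted p = 0.19). Before Ang-II it was 1.66-fold lower, also without passing (log2 difference -0.73 ± 0.31 SE, adjusted p = 0.094). From 2 to 24 h Dusp1 fell 3.53-fold in WT (log2 difference -1.82 ± 0.31 SE, adjusted p = 0.00032) and 2.24-fold with CsA (log2 difference -1.162 ± 0.31 SE, adjusted p = 0.017). The latter lost its call without any 1 of 3 libraries (2 h replicates 2 and 3, 24 h replicate 3, adjusted p 0.051 to 0.081).

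Dusp8 was 68.4 and 86.1 in untreated Cn-Ctl, 219.8, 226 and 231 at 2 h, 82.8, 77.0 and 116 at 6 h and 95.3 and 70.0 at 24 h. The 2 h libraries lay close together and far above the rest, and those at 6 and 24 h overlapped the untreated ones. In SM-Cn-/- it was 96.1, 81.8 and 75.8 untreated, 138, 96.7 and 187 at 2 h, 77.0, 80.6 and 90.7 at 6 h and 48.8, 54.8 and 53.3 at 24 h. The rise at 2 h was 2.93-fold in Cn-Ctl (log2 difference 1.55 ± 0.23 SE, adjusted p = 8.9e-05), and in SM-Cn-/- the ratio was 1.61, which did not pass (log2 difference 0.69 ± 0.20 SE, adjusted p = 0.12). It passed without 2 h replicate 2 (log2 difference 0.93, adjusted p = 0.037). From 2 to 6 h in Cn-Ctl it fell 2.48-fold (log2 difference -1.31 ± 0.20 SE, adjusted p = 0.0011). The 2 h level was 1.66-fold higher in Cn-Ctl (log2 difference 0.73 ± 0.20 SE, adjusted p = 0.044). This call was lost without any 1 of 5 libraries (all 3 Cn-Ctl and SM-Cn-/- replicates 1 and 2, adjusted p 0.094 to 0.35), by edgeR (adjusted p = 0.080), after quantile normalization (adjusted p = 0.27), over all genes listed (adjusted p = 0.051) and with only the groups compared (adjusted p = 0.099). The difference of responses did not pass (log2 difference 0.86, 95% interval 0.24 to 1.49, adjusted p = 0.36).

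In the CsA experiment Dusp8 was 73.8, 91.9 and 115 in untreated WT, 229, 189 and 252 at 2 h and 97.6, 73.8 and 50.05 at 24 h. With CsA it was 60.1, 66.2 and 46.8 untreated, 144, 157 and 173 at 2 h and 73.4, 91.7 and 53.4 at 24 h. Every CsA library was below every WT library both before Ang-II and at 2 h. The untreated difference was 1.60-fold (log2 difference -0.68 ± 0.23 SE, adjusted p = 0.041). It lost its call without any 1 of 4 libraries (WT replicates 2 and 3, CsA replicates 1 and 3, adjusted p 0.072 to 0.17) and with the replicate number as a block (adjusted p = 0.055), and the one at 2 h did not pass (log2 difference -0.49 ± 0.23 SE, adjusted p = 0.27). The rise at 2 h was 2.40-fold in WT (log2 difference 1.26 ± 0.23 SE, adjusted p = 0.0010) and 2.74-fold with CsA (log2 difference 1.46 ± 0.23 SE, adjusted p = 0.00058), and their difference did not pass (log2 difference 0.19, 95% interval -0.50 to 0.89, adjusted p = 0.83). By 24 h it had fallen 3.10-fold from 2 h in WT (log2 difference -1.63 ± 0.23 SE, adjusted p = 7.3e-05) and 2.21-fold with CsA (log2 difference -1.14 ± 0.23 SE, adjusted p = 0.0038).

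Dusp10, which like Dusp8 acts on JNK and p38, was 14.8 and 11.8 in untreated Cn-Ctl, 61.1, 51.1 and 42.9 at 2 h, 23.2, 27.9 and 43.4 at 6 h and 14.6 and 19.8 at 24 h. In SM-Cn-/- it was 47.0, 34.8 and 20.1 untreated, 27.6, 20.1 and 31.8 at 2 h, 20.8, 26.2 and 27.9 at 6 h and 19.0, 26.5 and 20.4 at 24 h. The untreated SM-Cn-/- libraries were all above the untreated Cn-Ctl ones and overlapped their own 2 h libraries, and at 2 h the order was the opposite, with Cn-Ctl above SM-Cn-/- throughout. The rise in Cn-Ctl was 3.78-fold (log2 difference 1.92 ± 0.32 SE, adjusted p = 0.00040). The responses differed by 4.64-fold between the genotypes (log2 difference 2.21 ± 0.43 SE, adjusted p = 0.014). This difference carries both the lower untreated level and the higher 2 h level of Cn-Ctl, neither of which passed alone (adjusted p = 0.42 untreated and 0.068 at 2 h, the latter 1.95-fold). Fitted with only the groups compared, the 2 h difference passed (adjusted p = 0.042). The marker sums given above for the untreated genotypes apply here too. The difference of responses was lost without either untreated Cn-Ctl library or SM-Cn-/- 2 h replicate 2 (adjusted p 0.060 to 0.11). At 6 h Cn-Ctl was 2.26-fold above untreated (log2 difference 1.17 ± 0.32 SE, adjusted p = 0.039), a call lost without any 1 of 4 libraries (both untreated ones and 6 h replicates 2 and 3, adjusted p 0.065 to 0.34).

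In the CsA experiment Dusp10 rose at 2 h in both groups, whose 2 h levels overlapped. WT was 14.01, 21.4 and 23.8 untreated, 42.2, 35.9 and 45.8 at 2 h and 24.8, 23.8 and 7.14 at 24 h. In CsA it was 14.1, 11.4 and 13.1 untreated, 34.2, 40.1 and 40.3 at 2 h and 14.4, 18.4 and 10.1 at 24 h. All 2 h libraries exceeded all untreated and 24 h libraries of their own group. The rise was 2.10-fold in WT (log2 difference 1.07 ± 0.34 SE, adjusted p = 0.035) and 2.89-fold with CsA (log2 difference 1.53 ± 0.34 SE, adjusted p = 0.0062). The fall from 2 to 24 h was 2.48-fold (log2 difference -1.31 ± 0.34 SE, adjusted p = 0.0072) and 2.68-fold (log2 difference -1.42 ± 0.34 SE, adjusted p = 0.010). The WT rise was lost without any 1 of 4 libraries (untreated replicates 1 and 2, 2 h replicates 1 and 3, adjusted p 0.064 to 0.15) and after quantile normalization (adjusted p = 0.060). Without 24 h replicate 3, the low library, the WT log2 change from 2 h to 24 h was -0.75 (limma, adjusted p = 0.0206).

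Dusp5, a nuclear phosphatase selective for ERK, was the 1 member that differed between the genotypes at 2, 6 and 24 h. In Cn-Ctl it was 4.01 and 3.38 untreated, 16.3, 22.0 and 11.3 at 2 h, 8.29, 13.3 and 36.5 at 6 h and 10.1 and 15.7 at 24 h, so every treated library exceeded both untreated ones. In SM-Cn-/- it was 3.66, 2.17 and 3.26 untreated, 1.96, 1.28 and 4.28 at 2 h, 4.82, 1.65 and 2.60 at 6 h and 2.47, 2.70 and 1.43 at 24 h, with all 12 libraries at or below 4.82 and every treated one below every treated Cn-Ctl library. The counts behind these values are small, 7 to 139 reads over the 22 libraries. Cn-Ctl was higher by 5.96-fold at 2 h (log2 difference 2.57 ± 0.49 SE, adjusted p = 0.0029), 5.03-fold at 6 h (log2 difference 2.33 ± 0.49 SE, adjusted p = 0.012) and 4.95-fold at 24 h (log2 difference 2.31 ± 0.55 SE, adjusted p = 0.015).

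Within Cn-Ctl the rise of Dusp5 was 3.93-fold at 2 h (log2 difference 1.97 ± 0.55 SE, adjusted p = 0.034) and 3.95-fold at 6 h (log2 difference 1.98 ± 0.55 SE, adjusted p = 0.043), and at 24 h, with 2 libraries in each group, it did not pass (log2 difference 1.64 ± 0.60 SE, adjusted p = 0.12). In SM-Cn-/- no rise was resolved at 2 h (log2 difference -0.33, 95% interval -1.35 to 0.69, adjusted p = 0.81), and the difference between the 2 h responses did not pass (log2 difference 2.31, 95% interval 0.77 to 3.84, adjusted p = 0.29). The 2 h difference of genotypes kept its call without each of the 6 libraries. The 6 h one was lost without Cn-Ctl replicate 3 or SM-Cn-/- replicates 2 or 3 (adjusted p 0.059 to 0.086), and the 24 h one without Cn-Ctl replicate 3 or SM-Cn-/- replicate 3 (adjusted p 0.061 to 0.21). The rises in Cn-Ctl were lost without either untreated library, without 2 h replicates 1 or 2 (adjusted p 0.085 to 0.24) and without 6 h replicates 2 or 3 (adjusted p 0.067 to 0.29). The 6 h rise was also lost over all genes listed (adjusted p = 0.054).

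In WT, Dusp5 was 3.49, 3.32 and 5.21 untreated, 16.9, 10.5 and 15.1 at 2 h and 18.2, 27.4 and 10.7 at 24 h, again raised at both times. With CsA it was 2.83, 3.77 and 3.83 untreated, 4.32, 10.6 and 8.89 at 2 h and 5.03, 3.16 and 3.39 at 24 h, above untreated in every library at 2 h and overlapping untreated at 24 h. The rise in WT was 3.25-fold at 2 h (log2 difference 1.70 ± 0.33 SE, adjusted p = 0.0017) and 4.07-fold at 24 h (log2 difference 2.02 ± 0.33 SE, adjusted p = 0.00024). With CsA it was 2.01-fold at 2 h (log2 difference 1.01 ± 0.33 SE, adjusted p = 0.042). This call was lost without any 1 of 5 libraries (untreated replicates 1, 2 and 3, 2 h replicates 2 and 3, adjusted p 0.073 to 0.18) and with the replicate number as a block (adjusted p = 0.061), and also with a pseudocount of 2 (adjusted p = 0.056) and in the fit of only these groups (adjusted p = 0.087). At 24 h no difference from untreated was resolved (log2 difference 0.12, 95% interval -0.59 to 0.82, adjusted p = 0.85). CsA was 4.20-fold below WT at 24 h (log2 difference -2.07 ± 0.33 SE, adjusted p = 0.0042), with every CsA library below every WT library, and this held without each of the 6 libraries but not in a fit of only these groups (adjusted p = 0.073). At 2 h the levels overlapped (log2 difference -0.86 ± 0.33 SE, adjusted p = 0.19), and the difference of the 2 h responses did not pass (log2 difference -0.69, 95% interval -1.69 to 0.31, adjusted p = 0.52). Whether the effect of CsA on Dusp5 differed between 2 and 24 h was not tested.

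Spry2, an inhibitor of receptor tyrosine kinase signalling to Ras, was 11.9 and 19.1 in untreated Cn-Ctl, 44.0, 58.1 and 49.1 at 2 h, 25.0, 26.9 and 24.3 at 6 h and 18.7 and 21.9 at 24 h. In SM-Cn-/- it was 15.3, 15.2 and 17.4 untreated, 23.1, 25.7 and 26.6 at 2 h, 22.1, 22.6 and 17.2 at 6 h and 16.9, 16.6 and 16.9 at 24 h. Both genotypes had all 2 h libraries above all untreated ones, with Cn-Ctl at 2 h above every other library of the experiment. The rise was 3.25-fold in Cn-Ctl (log2 difference 1.70 ± 0.23 SE, adjusted p = 3.3e-05) and in SM-Cn-/- the ratio was 1.56, which did not pass (log2 difference 0.64 ± 0.21 SE, adjusted p = 0.16). Cn-Ctl exceeded SM-Cn-/- 1.97-fold at 2 h (log2 difference 0.98 ± 0.21 SE, adjusted p = 0.0062), a call lost without Cn-Ctl replicate 2 (adjusted p = 0.059). The difference of responses did not pass (log2 difference 1.06, 95% interval 0.42 to 1.70, adjusted p = 0.20). From 2 to 6 h in Cn-Ctl Spry2 fell 1.95-fold (log2 difference -0.96 ± 0.21 SE, adjusted p = 0.016), a call lost without 2 h replicate 2 or 6 h replicates 1 or 3 (adjusted p 0.052 to 0.11) and in the fit of only the groups compared (adjusted p = 0.11).

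In WT, Spry2 was 13.1, 16.7 and 17.8 untreated, 38.8, 31.1 and 36.3 at 2 h and 33.2, 34.8 and 18.4 at 24 h. CsA libraries had 15.2, 16.5 and 13.3 untreated, 22.4, 26.2 and 29.8 at 2 h and 19.9, 21.8 and 15.6 at 24 h. All 2 h libraries exceeded the untreated ones of their group, and those of CsA lay below those of WT. The rise was 2.20-fold at 2 h in WT (log2 difference 1.14 ± 0.20 SE, adjusted p = 0.00089), 1.74-fold at 24 h in WT (log2 difference 0.80 ± 0.20 SE, adjusted p = 0.0065) and 1.71-fold at 2 h with CsA (log2 difference 0.77 ± 0.20 SE, adjusted p = 0.015). The last was lost without untreated replicate 3 or 2 h replicates 2 or 3 (adjusted p 0.051 to 0.062). Neither the level at 2 h (log2 difference -0.44 ± 0.20 SE, adjusted p = 0.27) nor the response (log2 difference -0.37, 95% interval -0.98 to 0.25, adjusted p = 0.59) passed between CsA and WT.

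Spry4, another Sprouty, passed the test in Cn-Ctl at 6 h. It was 7.06 and 8.67 untreated, 13.5, 18.2 and 25.8 at 2 h, 22.6, 26.1 and 28.7 at 6 h and 15.8 and 21.4 at 24 h, and every treated library exceeded the untreated ones. In SM-Cn-/- it was 8.88, 13.7 and 9.32 untreated, 10.8, 10.3 and 10.1 at 2 h, 16.2, 8.24 and 5.03 at 6 h and 14.8, 14.8 and 10.2 at 24 h, and treated libraries overlapped untreated ones at all times. In Cn-Ctl it was 3.15-fold above untreated at 6 h (log2 difference 1.65 ± 0.37 SE, adjusted p = 0.012), with values that did not pass at 2 h (log2 difference 1.19 ± 0.37 SE, adjusted p = 0.063) or 24 h (log2 difference 1.18 ± 0.41 SE, adjusted p = 0.10). At 6 h Cn-Ctl exceeded SM-Cn-/- 2.81-fold (log2 difference 1.49 ± 0.33 SE, adjusted p = 0.019), and at 2 h the difference did not pass (log2 difference 0.80 ± 0.33 SE, adjusted p = 0.25). The 2 h rise in Cn-Ctl passed with a stricter filter on low values (adjusted p = 0.047). The 6 h rise was lost without either untreated library (adjusted p 0.077 to 0.16) and the 6 h difference without replicates 2 or 3 of either genotype (adjusted p 0.059 to 0.15).

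In the CsA experiment Spry4 was 9.12, 9.35 and 10.8 in untreated WT, 18.1, 15.8 and 19.1 at 2 h and 20.3, 19.9 and 17.4 at 24 h. CsA libraries had 12.8, 9.64 and 9.18 untreated, 20.8, 20.1 and 17.3 at 2 h and 14.5, 14.9 and 14.7 at 24 h. Treated libraries exceeded untreated ones in both groups, and WT and CsA overlapped at 2 h but not at 24 h, where WT was higher without passing (adjusted p = 0.090). The rise at 2 h was 1.77-fold in WT (log2 difference 0.83 ± 0.13 SE, adjusted p = 0.00023) and 1.82-fold with CsA (log2 difference 0.86 ± 0.13 SE, adjusted p = 0.00032). At 24 h it was 1.92-fold in WT (log2 difference 0.94 ± 0.13 SE, adjusted p = 4.0e-05) and 1.39-fold with CsA (log2 difference 0.48 ± 0.13 SE, adjusted p = 0.029), after a 1.31-fold fall from 2 h (log2 difference -0.38 ± 0.13 SE, adjusted p = 0.045). The CsA call at 24 h was lost without any 1 of 4 libraries (untreated replicates 2 and 3, 24 h replicates 1 and 2, adjusted p 0.076 to 0.10), and the fall without any 1 of 5 (2 h replicates 1 and 2 and all 3 at 24 h, adjusted p 0.084 to 0.12). Fitted with only the groups compared, neither passed (adjusted p = 0.11 and 0.097), and the fall did not pass after quantile normalization (adjusted p = 0.057) or with the replicate number as a block (adjusted p = 0.054).

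Spry1, another Sprouty, was higher with CsA than in WT before any Ang-II. Untreated WT had 10.6, 10.3 and 10.8, with 16.04, 18.4 and 13.3 at 2 h and 22.5, 21.9 and 20.0 at 24 h. With CsA it had 21.0, 17.4 and 21.5 untreated, 19.5, 18.4 and 13.9 at 2 h and 16.8, 21.8 and 26.4 at 24 h. Before Ang-II the groups did not overlap, and at 2 and 24 h they did. The untreated difference was 1.84-fold (log2 difference 0.88 ± 0.16 SE, adjusted p = 0.0019), with the marker sums given above for these 6 libraries, and it held without each of them. In WT the rise was 1.47-fold at 2 h (log2 difference 0.56 ± 0.16 SE, adjusted p = 0.020) and 1.99-fold at 24 h (log2 difference 0.99 ± 0.16 SE, adjusted p = 0.00021), with 1.35-fold between them (log2 difference 0.43 ± 0.16 SE, adjusted p = 0.046). The difference of 2 h responses did not pass (log2 difference -0.77, 95% interval -1.25 to -0.29, adjusted p = 0.17). The 2 h call was lost without any 1 of 4 libraries (untreated replicates 1 and 2, 2 h replicates 1 and 2, adjusted p 0.055 to 0.080), and the 24 h against 2 h call without any 1 of 5 (2 h replicates 1 and 3 and all 3 at 24 h, adjusted p 0.060 to 0.19), by edgeR (adjusted p = 0.053), after quantile normalization (adjusted p = 0.12) and with the replicate number as a block (adjusted p = 0.065). In the genotype experiment Spry1 ran from 3.44 to 24.1 over 22 libraries, and none of its comparisons passed.

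Spred1, which brings neurofibromin to the membrane to curb Ras, passed in no group at 2 h. In WT it was 43.9, 41.9 and 39.7 untreated, 39.3, 41.8 and 42.2 at 2 h and 50.8, 59.8 and 52.8 at 24 h. In CsA it was 45.4, 52.4 and 40.1 untreated, 43.6, 40.3 and 45.2 at 2 h and 41.7, 42.9 and 41.9 at 24 h. The 24 h WT libraries stood above all other WT libraries and above the 24 h CsA ones. Their rise was 1.30-fold from untreated (log2 difference 0.37 ± 0.09 SE, adjusted p = 0.0050) and 1.32-fold from 2 h (log2 difference 0.40 ± 0.09 SE, adjusted p = 0.0032). CsA was 1.29-fold lower at 24 h (log2 difference -0.36 ± 0.09 SE, adjusted p = 0.032), a call lost without WT replicate 2 or any CsA library (adjusted p 0.072 to 0.18). Macrophage markers were also higher at 24 h in WT (162 to 250.4 against 67.2 to 101 untreated, 5 of 5), and so were endothelial (587 to 699.7 against 336 to 574, 1 of 5) and fat sums (398 to 476 against 182 to 367, 1 of 5, 0 by edgeR). Their part in the 24 h rises was not tested. In the genotype experiment Spred1 ran from 13.4 to 55.5 and passed in none of its comparisons.

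Dusp6, a cytoplasmic phosphatase selective for ERK and widely used as a readout of ERK activity, passed in no comparison. It ran from 8.93 to 23.2 over the 22 genotype libraries and from 10.9 to 26.8 over the 18 of the CsA experiment. At 2 h it was 13.9, 13.002 and 20.3 in Cn-Ctl against 15.2 and 16.9 untreated, and 13.8, 23.7 and 18.1 in WT against 10.9, 13.5 and 17.6, so that treated and untreated libraries overlapped in both. Its nearest approach was untreated CsA, 26.8, 19.8 and 17.8, all above untreated WT (log2 difference 0.60 ± 0.21 SE, adjusted p = 0.051). It passed there with a stricter filter on low values (adjusted p = 0.045) and without WT replicate 3 (log2 difference 0.77, adjusted p = 0.035).

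Dusp4, a nuclear relative of Dusp1, was at the edge of detection in the genotype experiment. Untreated Cn-Ctl had 3 and 2 reads and SM-Cn-/- 20, 9 and 29, and at 2 h Cn-Ctl had 8, 6 and 6 and SM-Cn-/- 10, 0 and 1 reads. In signal, untreated SM-Cn-/- libraries (3.06, 2.42 and 6.63) lay above untreated Cn-Ctl (0.51 and 0.456) and above their own 2 h libraries (1.52, 0.0675 and 0.242). No comparison of the genotype experiment passed, the 2 h difference in SM-Cn-/- included (log2 difference -2.15 ± 0.56 SE, adjusted p = 0.070), although this passed without 2 h replicate 1 (log2 difference -2.69, adjusted p = 0.045) and with a pseudocount of 2 (log2 difference -1.19, adjusted p = 0.047). A library with 0 reads carries a small positive signal because of how the values were made, and the size of such a difference depends on the pseudocount. At the greater depth of the CsA experiment Dusp4 was 1.60, 3.47 and 3.14 in untreated WT and 17.4, 7.31 and 12.7 in untreated CsA, and the 3.94-fold difference passed (log2 difference 1.98 ± 0.47 SE, adjusted p = 0.0074) and held without each of the 6 libraries. With Ang-II the CsA libraries had 11.1, 2.69 and 4.52 at 2 h, overlapping untreated, and 3.60, 1.64 and 5.46 at 24 h, the latter 3.28-fold below untreated (log2 difference -1.71 ± 0.47 SE, adjusted p = 0.034). This call was lost without any 1 of 4 libraries (untreated replicates 1 and 3, 24 h replicates 1 and 2, adjusted p 0.082 to 0.15), by edgeR (adjusted p = 0.051) and in the fit of only these groups (adjusted p = 0.074). The marker sums given above for untreated CsA and WT apply here too.

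Other genes of the pathway were taken as fixed lists. Of 7 close relatives 5 were measured, and of these Dusp16, which like Dusp8 and Dusp10 acts on JNK and p38, rose at 2 h in Cn-Ctl (log2 difference 1.41, adjusted p = 0.0012), WT (log2 difference 1.01, adjusted p = 0.00080) and CsA (log2 difference 1.13, adjusted p = 0.00056), while in SM-Cn-/- it did not pass (log2 difference 0.60, adjusted p = 0.27). It fell again from 2 to 6 h in Cn-Ctl (log2 difference -1.203, adjusted p = 0.0074). Spred3 rose by 24 h in WT (log2 difference 0.91, adjusted p = 0.0016) and was lower with CsA at 24 h (log2 difference -0.93, adjusted p = 0.013). Dusp7 rose from 2 to 24 h in WT (log2 difference 0.63, adjusted p = 0.0053). Between the genotypes 0 of the 5 differed at any time by limma or edgeR. At an unadjusted p under 0.05 there were 2 at 2 h and 2 at 24 h, beside 2085 and 2560 of all 14424 genes tested.

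Receptors, adaptors and kinases of the cascade formed another list. Of 34 Ras-MAPK cascade genes, 4 rose and 2 fell at 2 h in Cn-Ctl, with a list median of 0.16 beside 0.01 for all genes, of which 6.23% changed. In SM-Cn-/-, where 1.13% of all genes changed, 0 passed by limma or edgeR. At an unadjusted p under 0.05 there were 6 of 34, beside 1870 of all 14424 genes tested. Those that rose in Cn-Ctl included the p38 kinase kinase Map2k3 (log2 difference 1.31, adjusted p = 0.0029), the Ras gene Nras (log2 difference 1.12, adjusted p = 0.0016) and the receptor Fgfr1 (log2 difference 0.71, adjusted p = 0.011). Of the 2 that fell, which are named after their values were seen, the adaptor Gab1 is one (log2 difference -1.09, adjusted p = 0.0044) and the receptor Pdgfrb the other (log2 difference -0.84, adjusted p = 0.013). In WT 10 rose and 3 fell at 2 h, and with CsA 10 rose and 2 fell, beside 21.4% and 20.1% of all genes. Between the genotypes at 2 h, 3 were higher in Cn-Ctl, Map2k3 (log2 difference 1.38, adjusted p = 0.0010), Nras (log2 difference 0.75, adjusted p = 0.026) and Fgfr1 (log2 difference 0.85, adjusted p = 0.0015), and 0 were lower (all genes 3.7%).

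Transcription factors that ERK signalling is known to induce were read beside the phosphatases. Of 14 such genes, 8 rose at 2 h in Cn-Ctl and 0 in SM-Cn-/-, while 12 rose in WT and 11 with CsA. The shares of all genes that changed were 6.23%, 1.13%, 21.4% and 20.1%. In that order the list medians were 2.16, 0.19, 2.37 and 1.62. Those of all genes were 0.01, -0.01, 0.02 and -0.02. In SM-Cn-/- edgeR also called 0, and 3 of 14 had an unadjusted p under 0.05, beside 1870 of all 14424 genes tested. Fos rose in Cn-Ctl (log2 difference 3.45, adjusted p = 4.9e-05) and was higher there than in SM-Cn-/- at 2 h (log2 difference 3.83, adjusted p = 9.2e-06), and with CsA it was lower than in WT (log2 difference -2.71, adjusted p = 0.026). Egr1 rose in Cn-Ctl (log2 difference 2.05, adjusted p = 0.0044) and was also lower with CsA than in WT at 2 h (log2 difference -2.01, adjusted p = 0.0044). For 5 of the 14, listed after their values were seen as Fosb, Fos, Myc, Atf3 and Jun, the 2 h response of Cn-Ctl exceeded that of SM-Cn-/- (all genes 0.513%). At 2 h 10 of the 14 were higher in Cn-Ctl (all genes 3.7%). With CsA 5 of the 14 were lower than in WT at 2 h (all genes 1.33%), with the marker sums given above for these libraries. The response differed for 0 of the 14 by limma or edgeR (all genes 0.146%). An unadjusted p under 0.05 was found for 7 of 14, beside 1898 of all 13738 genes tested. Etv4 and Etv5, which are often read together with Dusp6 as ERK targets and were also singled out after their values were seen, did not pass at 2 h in Cn-Ctl (log2 difference 1.05, adjusted p = 0.44 and log2 difference 0.34, adjusted p = 0.76). Etv4 had 0 reads in some genotype libraries, so its failure to pass does not show that it did not respond.

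Glucocorticoid targets were listed because Dusp1 is also one. Of 7 genes, 5 rose in each genotype, and 7 rose both in WT and with CsA at 2 h, where 6.23%, 1.13%, 21.4% and 20.1% of all genes changed in the 4 groups, genotypes first. Fkbp5 rose in Cn-Ctl (log2 difference 2.97, adjusted p = 1.7e-06) and in SM-Cn-/- (log2 difference 3.70, adjusted p = 1.0e-07), and Tsc22d3 likewise (log2 difference 1.80, adjusted p = 0.0012 and log2 difference 2.04, adjusted p = 0.00086). Between the genotypes 2 of 7 were higher in Cn-Ctl at 2 h, Sgk1 and Mt2 (all genes 3.7%). The 2 h response differed for 0 of 7 by limma or edgeR (all genes 0.513%). An unadjusted p under 0.05 was found for 2 of 7, beside 1150 of all 14424 genes tested. Their part in the rise of Dusp1, the 1 member that rose in SM-Cn-/-, was not tested.

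Over the 14 group means, centred within each experiment, each member was compared with 10329 protein-coding genes of sufficient level by the Pearson correlation of log2 signal, as a description only, since the groups share libraries, depth and treatment. The genes nearest to Dusp1 were Dnajb5 (r = 0.98), Adpgk (r = 0.97) and Cnksr3 (r = 0.97), and those nearest to Dusp8 were Katnbl1 (r = 0.99), Lancl3 (r = 0.98) and Malt1 (r = 0.98). Those nearest to Dusp10 were Akap13 (r = 0.92), Arid5b (r = 0.91) and Iqcb1 (r = 0.90). Dusp5 ran with Plau (r = 0.97), Cd44 (r = 0.95) and Arf6 (r = 0.95), of which Plau encodes the urokinase-type plasminogen activator and Cd44 a hyaluronan receptor. Spry2 ran with Etf1 (r = 0.98), Cttnbp2nl (r = 0.98) and Mdm2 (r = 0.97), and Spry4 with Hmox1 (r = 0.94), Fosl1 (r = 0.91) and Mapkapk2 (r = 0.90), of which Hmox1 encodes heme oxygenase and Fosl1 an AP-1 subunit. Likeness was weaker for Spry1, with Tnfaip2 (r = 0.89), Cldn15 (r = 0.87) and Ece1 (r = 0.87), for Spred1, with Dars (r = 0.88), Pes1 (r = 0.87) and Wdr3 (r = 0.84), and for Dusp6, with Ankef1 (r = 0.84) and Il2rg (r = 0.84). Dusp4 fell below the level set for this comparison.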

How the data were processed

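RNA was taken from pooled mouse aortas, primed with oligo dT and sequenced as 40 libraries in 14 groups. Per the labels and the study's methods, reads were aligned with Bowtie 0.12.7 and quantified with RSEM 1.16 on an Ensembl transcript set (GRCm38). The deposited values, called signal here, are normalised read counts that the authors scaled between libraries, and the step that normalised and filtered them is not given in the sources used here. Adding 0.5 to a gene's reads and dividing by the scaled size of the library was found to give each value, and whole reads were recovered for 100% of values. Depth was 2728007 to 10250178 reads per genotype library and 18976266 to 38900009 per CsA library.

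For each experiment 1 limma model (limma 3.58.1, R 4.3.3, with a mean-variance trend) was fitted to log2(signal + 0.5) over all its groups, on protein-coding genes with a signal of at least 1 in at least 2 libraries. Fold changes are on the log2(signal + 0.5) scale, which understates changes of low genes. P-values are two-sided and were adjusted by the Benjamini-Hochberg method over all genes tested, and a gene was called at an adjusted p under 0.05. Confidence intervals (95%) are those of single genes, not adjusted. Differences are given as first-named minus second-named group, with CsA minus WT. Levels between genes are per kb of summed exon length (GENCODE annotation on GRCm38). The 2 experiments were never joined in a test. Alternatives were a pseudocount of 2, no filter or a filter of 5 in 3 libraries, quantile normalization, only the groups compared, the replicate number as a block, edgeR 4.0.16 on the recovered reads, all genes listed, and leaving out each library in turn.

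The main fits did not pair libraries by replicate number. All 3 same-numbered pairs deviated together at r above 0.1 for CsA at 2 h against untreated (r = 0.17 to 0.38). Both pairs did so for Cn-Ctl against untreated at 6 h (r = 0.17 and 0.21). At 24 h, with 2 libraries in each group, the pairs share a single value by construction (r = 0.16). The 38 pairs of replicates differed by far more than sampling noise (chi-square per degree of freedom 5.97 to 82.6), so that no library was counted as a repeat. The 10 genes, the lists and the tests were chosen with earlier results of these data known. Beyond the 10 genes, the rule names Ppp3r1, Rcan1 and the 3 genes most correlated with each of the 10. It adds up to 4 genes per list that passed a comparison. Outside this rule, Gab1, Pdgfrb, Fosb, Myc, Atf3, Jun, Etv4 and Etv5 were named after their values were seen. Some cell type markers are named too. A few genes that this rule names are not reported here. Promoter sequences are those of RefSeq, and 8 of the 10 genes matched by symbol.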

Additional observations from a re-analysis of the deposited data

Results flagged for a closer look

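The response of Dusp10 to 2 h of Ang-II differed between Cn-Ctl and SM-Cn-/- by the test of the difference itself (log2 difference 2.21, limma adjusted p = 0.014). Dusp10 rose in all 3 Cn-Ctl libraries, whereas in SM-Cn-/- the 2 h libraries overlapped the untreated ones, and the call was lost without either untreated Cn-Ctl library or SM-Cn-/- 2 h replicate 2. Dusp4 was singled out because every Cn-Ctl library at 2 h lay above the untreated Cn-Ctl libraries while every SM-Cn-/- library at 2 h lay below the untreated SM-Cn-/- ones. The 2 responses differed by 2.95 on the log2 scale, and the test of that difference did not pass (adjusted p = 0.18). Dusp4 had between 0 and 29 reads in the libraries of this experiment.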

How the results depend on the processing

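Of 54 named calls, 30 were kept without each library and 24 were lost without some library. A fit of only the groups compared, which has fewer residual degrees of freedom, ended 15 calls, quantile normalization 7, the replicate block 4, edgeR 3, all genes listed 2, a pseudocount of 2 ended 1, and the 2 filters 0. In such a fit the number of the 10 genes called fell from 4 to 0 for Cn-Ctl at 6 h against untreated, from 2 to 1 for Cn-Ctl at 6 h against 2 h, from 1 to 0 for SM-Cn-/- at 2 h, from 2 to 0 between the genotypes at 6 h, from 2 to 0 for CsA at 24 h against untreated and from 2 to 0 between CsA and WT at 24 h. With a pseudocount of 2 it was 2 for SM-Cn-/- at 2 h. Quantile normalization gave 0 for SM-Cn-/- at 2 h and 2, in place of 4, between the genotypes at 2 h. By edgeR it was 1 for CsA at 24 h against untreated.

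Leaving out 1 library at a time gave 4 to 5 calls for Cn-Ctl at 2 h, 0 to 4 at 6 h and 1 to 2 from 2 to 6 h, 0 to 1 for SM-Cn-/- at 2 h, and between the genotypes 2 to 4 at 2 h, 0 to 2 at 6 h, 0 to 1 at 24 h and 0 to 1 for the 2 h response. It gave 5 to 7 for WT at 2 h and 4 to 5 from 2 to 24 h, 4 to 7 for CsA at 2 h, 0 to 2 at 24 h and 2 to 4 from 2 to 24 h, and between CsA and WT 2 to 3 untreated and 1 to 4 at 24 h. A group left with 1 library was taken to vary like the other groups.

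The difference between CsA and WT in the 2 h response of Dusp1, -0.05, was 0.076 after quantile normalization and 0.06 by edgeR, and ran from -0.47 to 0.18 without 1 library. The 24 h difference of Dusp5 with CsA, 0.12, ran from -0.066 to 0.23 without 1 library. Neither value passed the test under any setting. Both lie close to 0, and the cause of the change of sign was not tested.

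All 3 same-numbered pairs deviated together for CsA at 2 h against untreated. There the replicate block gave 5 calls in place of 6 and lost Dusp5 (limma, adjusted p = 0.061). Elsewhere r ran from -0.39 to 0.29, with both pairs above 0.1 for Cn-Ctl at 6 h against untreated. At 24 h the Cn-Ctl pairs share a single value by construction, also above 0.1. The replicate block moved the count for SM-Cn-/- from 2 to 6 h from 0 to 1, and it ended the calls of Spry1 in WT from 2 to 24 h (adjusted p = 0.065), Spry4 with CsA from 2 to 24 h (adjusted p = 0.054) and Dusp8 between CsA and WT untreated (adjusted p = 0.055).

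Over all genes, the fit of only the groups compared lowered the count called in some comparisons, as from 572 to 131 for Cn-Ctl at 6 h and from 766 to 0 between CsA and WT at 24 h, and raised it in others, as from 163 to 227 for SM-Cn-/- at 2 h and from 3464 to 4196 between CsA and WT untreated. Quantile normalization shifted the median of all genes between CsA and WT untreated from -0.02 to -0.11, and the genes called higher there went from 1904 of 3464 to 1547 of 3888. It also moved the split for WT at 2 h from 1562 higher of 2937 to 1078 of 2691, for Cn-Ctl at 2 h from 681 of 899 to 449 of 690, for Cn-Ctl against SM-Cn-/- at 2 h from 429 of 534 to 238 of 344 and for CsA from 2 to 24 h from 1021 of 2473 to 1326 of 2357. Depth limits Dusp4 and Dusp5 in the genotype experiment, with 0 to 29 and 7 to 139 reads per library.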
